A study of Homo sapiens with 2 samples.

Results

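The CEBP genes encode the C/EBP transcription factors, and the 5 members described here were CEBPA, CEBPB, CEBPD, CEBPE and CEBPG, out of 19974 protein-coding genes annotated on the autosomes and chromosome X. They were taken by name. An LDB1 peak was counted for a member when its midpoint fell inside the gene or at most 10 kb outside it, and in a wider count at most 50 kb outside, where distal enhancers of CEBPA and CEBPE are known to lie. The data were 1 CUT&Tag library made with an antibody against LDB1 and 1 made with non-specific IgG, both from NB4 cells that had received no treatment. NB4 is a human cell line from acute promyelocytic leukaemia and carries the PML::RARA fusion. CUT&Tag brings the Tn5 transposase to chromatin through an antibody, and Tn5 then inserts sequencing adapters into DNA near the protein the antibody binds. The values were the positions and widths of 52765 LDB1 peaks on these chromosomes; the IgG library was not analysed here. There was no replicate and no test between samples was possible, so every value is a description of 1 peak list whose depth is unknown. The label of the cell line could not be checked against marker genes, since no expression was measured. Coordinates are hg38 and count from 1.

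C/EBP proteins bind DNA as dimers through a basic region and a leucine zipper, and they pair with each other and with other basic leucine zipper proteins. In the myeloid lineage C/EBPα starts the granulocyte programme, C/EBPε drives the late stages in which secondary granules form, and C/EBPβ serves granulocyte production under stress and the macrophage programme. C/EBPδ is known as an acute-phase and inflammatory factor, and C/EBPγ, which lacks a known activation domain, acts mainly as a dimer partner. LDB1 does not itself bind DNA; as a dimer it links LMO proteins and, through them, GATA factors and basic helix-loop-helix factors, which read GATA and E-box letters in enhancers and promoters.

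Promoter sequences are shown first because the members differed in whether a peak lay there. Each runs from 250 bases before to 50 bases after a RefSeq gene start (build GRCh38.p14), and 4 of the 5 members matched the promoter table; CEBPD is named only. Capitals mark each match, on either strand, to any of 10 motifs. Any E-box was written CANNTG, which also takes in the forms CAGCTG (searched separately) and, likewise searched separately, CAGATG. The GATA motif was GATAA. The C/EBP motifs were TTNNGNAA (loose) and the palindrome TTGCGCAA, which the loose form takes in. The RUNX motif was TGTGGT, the ETS motif was GGAAGT, the GC box was GGGCGG and the TATA box was TATAAA. The CEBPE window is chr14:23119206-23119505, minus strand, and lay wholly inside a peak. The first CEBPB window is chr20:50190333-50190632, plus strand, and also lay wholly inside a peak; the second is chr20:50190580-50190879, of which 52.7% lay under the same peak. The CEBPA window is chr19:33302485-33302784, minus strand, and the first of the 2 CEBPG windows is chr19:33373459-33373758, plus strand; no base of either lay under a peak.
CEBPE: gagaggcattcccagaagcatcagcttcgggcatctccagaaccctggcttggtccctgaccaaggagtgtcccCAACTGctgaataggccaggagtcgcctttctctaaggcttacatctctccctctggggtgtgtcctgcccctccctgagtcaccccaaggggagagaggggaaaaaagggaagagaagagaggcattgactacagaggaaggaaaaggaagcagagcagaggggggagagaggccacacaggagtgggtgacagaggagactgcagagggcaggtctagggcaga
CEBPB, first start: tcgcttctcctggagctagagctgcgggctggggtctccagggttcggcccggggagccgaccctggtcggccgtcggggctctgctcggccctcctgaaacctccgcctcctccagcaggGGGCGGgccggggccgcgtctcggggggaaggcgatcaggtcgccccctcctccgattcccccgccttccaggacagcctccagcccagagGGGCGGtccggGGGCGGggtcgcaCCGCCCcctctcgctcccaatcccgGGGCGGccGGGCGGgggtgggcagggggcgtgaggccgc
CEBPB, second start: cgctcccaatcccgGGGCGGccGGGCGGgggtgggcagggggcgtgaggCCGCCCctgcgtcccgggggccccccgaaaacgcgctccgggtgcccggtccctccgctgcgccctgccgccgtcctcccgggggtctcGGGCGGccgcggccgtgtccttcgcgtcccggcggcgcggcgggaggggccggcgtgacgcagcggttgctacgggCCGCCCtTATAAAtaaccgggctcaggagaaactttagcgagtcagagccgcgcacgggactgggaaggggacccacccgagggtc
CEBPA: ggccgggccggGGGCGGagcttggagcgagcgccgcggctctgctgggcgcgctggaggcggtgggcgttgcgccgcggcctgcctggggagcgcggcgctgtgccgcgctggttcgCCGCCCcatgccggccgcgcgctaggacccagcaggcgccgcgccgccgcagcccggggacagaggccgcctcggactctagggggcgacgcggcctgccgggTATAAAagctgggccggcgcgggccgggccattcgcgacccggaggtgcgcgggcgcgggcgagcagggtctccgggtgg
CEBPG, first start: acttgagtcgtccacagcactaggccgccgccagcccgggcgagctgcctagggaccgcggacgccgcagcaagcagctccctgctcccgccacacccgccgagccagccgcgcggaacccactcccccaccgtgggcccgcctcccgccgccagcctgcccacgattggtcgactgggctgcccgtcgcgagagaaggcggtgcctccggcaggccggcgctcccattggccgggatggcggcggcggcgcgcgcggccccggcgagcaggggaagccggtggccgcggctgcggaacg

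The CEBPE promoter had 57.7% G and C, close to the median of 58.7% over the 35116 windows of the promoter table. It held 1 E-box, beginning 176 bases before the start, and no match to the motifs that are not E-boxes. An E-box was found in 68.7% of all windows and in 47.0% of those with at least 75% G and C; the CEBPA, CEBPB and CEBPG windows held none. The CEBPB windows had 77.0 and 76.7% G and C and held 6 and 5 GC boxes, and no E-box, GATAA or C/EBP match. GC boxes were found in 45.0% of all windows, and in 96.2% of the 3377 windows this rich in G and C. The CEBPB windows overlap, and the GC boxes in the shared part were counted in both. The second CEBPB window held a TATA box beginning 29 bases before its start, and the CEBPA window, with 80.7% G and C, held 1 beginning 30 bases before its start. TATAAA was found in 11.5% of all windows and in 1.57% of those rich in G and C. No GATAA match lay in any of the 6 member windows; 22.7% of all windows had 1 or more, but only 2.37% of those rich in G and C did. The loose C/EBP, palindromic C/EBP, RUNX and ETS motifs, found in 36.8, 0.151, 13.1 and 22.8% of all windows, had no match in the member windows, nor had CAGCTG (17.9%) or CAGATG (14.7%). In windows with at least 75% G and C, as all member windows but that of CEBPE were, the first 4 shares were 5.39, 0.118, 3.61 and 12.7%. There CAGCTG was found in 14.8% and CAGATG in 3.38%. A match is letters only, and its absence covers only this window.

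A peak midpoint lay in or within 10 kb of all 5 CEBP genes, as it did for 70.1% of all protein-coding genes and for 59.4% of the 3161 that are 5 kb or shorter. The members had 9 (CEBPE), 6 (CEBPB), 3 (CEBPA), 2 (CEBPG) and 1 (CEBPD), a median of 3 against 1 over all protein-coding genes and 1 over the short ones. All members but CEBPG, which spans 8978 bp, are shorter than 5 kb, so gene length adds little to their windows. Within 50 kb all 5 again had a peak, as did 86.1% of all protein-coding genes and 79.2% of the short ones. The counts there were 20 for CEBPE, 12 for CEBPA, 12 for CEBPG, 9 for CEBPB and 4 for CEBPD, a median of 12 against 3. A midpoint inside the gene body was found for 3 of 5 (CEBPA, CEBPD and CEBPE), against 54.5% of all protein-coding genes and 32.1% of the short ones. Since most genes have a peak this near, having 1 says little about the family, and the members differed among themselves in number, width and place.

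**Figure D1:**
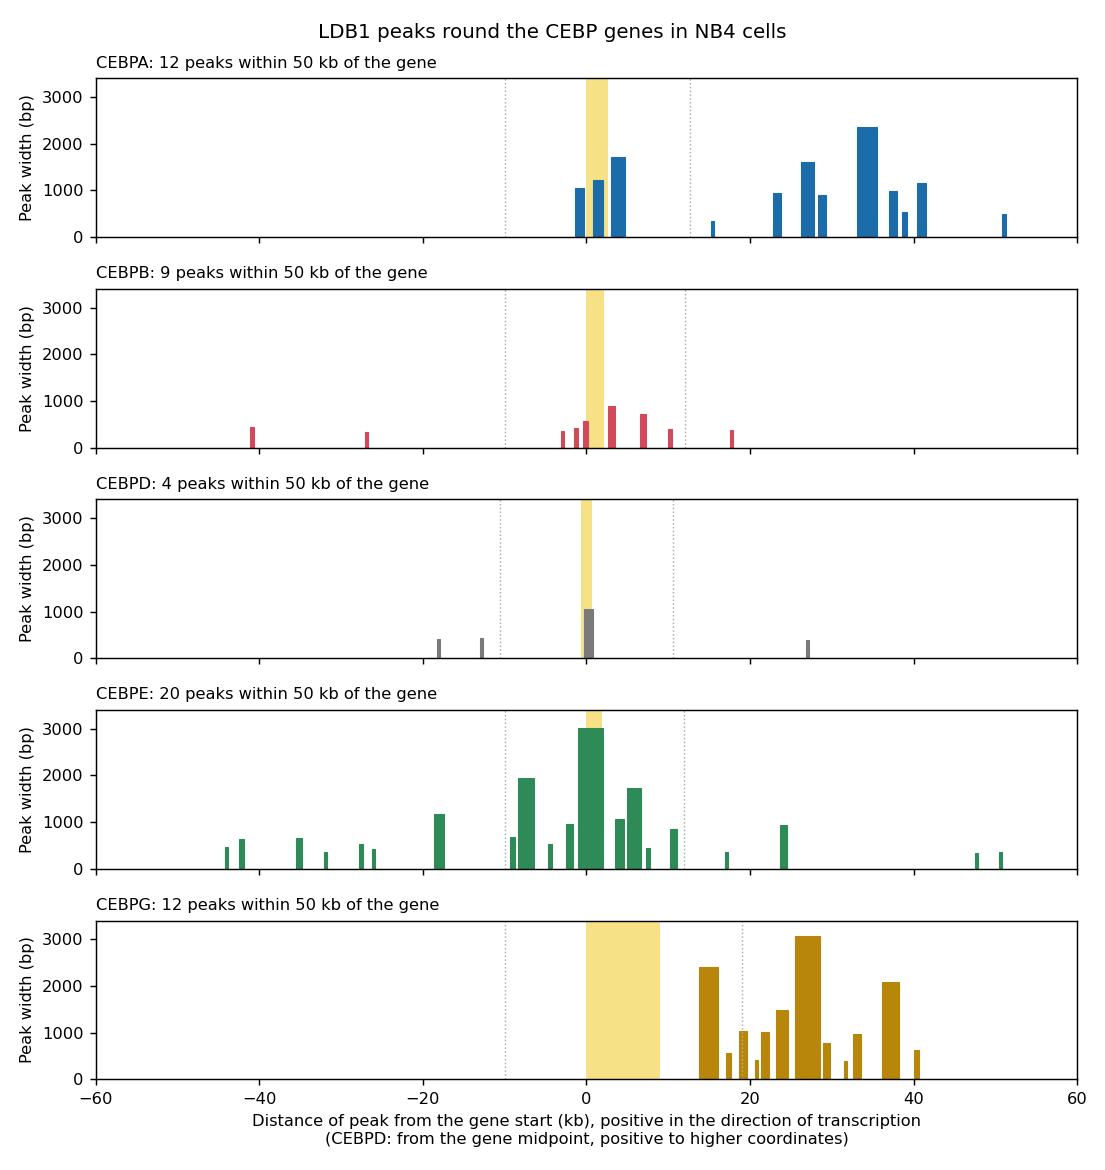
LDB1 peaks within 50 kb of each CEBP gene, drawn as bars at their distance from the gene start in kb (x axis, positive in the direction of transcription; for CEBPD, whose strand was not used, from the gene midpoint) with height equal to peak width in bp; the yellow band is the gene body and dotted lines lie 10 kb outside it. Peaks crowd both sides of CEBPE, lie almost all downstream of CEBPA, and lie only downstream of CEBPG.

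CEBPE had the most peaks of the family, and its widest peak covered the whole gene. That peak was 3005 bp wide (chr14:23117271-23120275), reached 1020 bp beyond the gene start and 35 bp beyond the gene end, and was matched or exceeded in width by 0.768% of all peaks. It was picked as the widest at CEBPE, so this share of single peaks overstates how rare it is. CEBPE itself spans chr14:23117306-23119255. Downstream of the gene lay peaks of 1072 bp, 1725 bp, 443 bp and 857 bp, with midpoints 4.01, 5.85, 7.51 and 10.7 kb from the gene start. Upstream lay peaks of 953, 530, 1939 and 687 bp, at 2.08, 4.43, 7.36 and 9.04 kb from the start. The 1725 bp peak (chr14:23112544-23114268) and the 1939 bp peak (chr14:23125649-23127587) were thus on opposite sides of the gene, and the 1939 bp peak lay inside SLC7A8, which encodes an amino acid transporter.

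The 9 peaks covered 51.1% of the 10 kb window of CEBPE. Of all protein-coding genes 5.7% had at least as many peaks within 10 kb, of those of 5 kb or less 0.917%, and of those on chromosome 14 2.81%. Within 50 kb, 11 of the 20 peaks lay upstream and 9 downstream. Neighbouring genes held many of them: 9 lay in SLC7A8, 3 in ACIN1, a gene of chromatin condensation and splicing, and 1 in CIROP, which encodes a peptidase, while 6 lay outside any gene. CEBPE was the nearest protein-coding gene of only 5 of the 20. With peaks 10 kb or less apart joined, CEBPE stood in a run of 18 peaks over 68.8 kb (chr14:23094691-23163518), a number reached by 0.62% of 25958 such runs. Runs of many peaks span more sequence, so this share by number does not tell how often a gene lies in one. An enhancer downstream of CEBPE is known in myeloid cells; its coordinates were not in the sources used here, so no peak was assigned to it.

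CEBPA had 3 peaks within 10 kb, all over 1 kb wide, and a further group far downstream. CEBPA spans chr19:33299934-33302534 on the minus strand. The nearest peaks were 1057 bp wide in the divergent long non-coding RNA gene CEBPA-DT (chr19:33302841-33303897), 1217 bp inside CEBPA (chr19:33300510-33301726) and 1720 bp just past the gene end (chr19:33297792-33299511). The gene start lay in none of them: it stood in a stretch of 1114 bp without a peak, 307 bp from the edge of the CEBPA-DT peak and 808 bp from the edge of the peak in the gene. A start outside any peak with a peak edge within 1 kb on both sides was found for 197 of 15813 protein-coding genes with known strand (1.25%), a pattern searched for after it was seen at CEBPA.

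Of the 12 peaks within 50 kb of CEBPA, 11 lay downstream of the start and 1 upstream. Between 20.7 and 38.4 kb beyond the gene end there were 7 peaks, and a peak-poor stretch with 1 peak of 349 bp separated them from the gene. The widest of them was 2357 bp (chr19:33267040-33269396), with its midpoint 34.3 kb from the gene start, a width reached by 1.61% of all peaks. Peaks of 1604 bp at 27.0 kb and 1167 bp at 41.0 kb from the start followed in width (chr19:33274696-33276299 and chr19:33260995-33262161). The 2357 bp peak was picked as the widest, so the share of single peaks overstates how rare it is. None of the 9 peaks between 10 and 50 kb lay in a gene. For 7 of these 9, CEBPA was the nearest protein-coding gene; the 1167 bp peak and a 503 bp peak at 51.1 kb were nearer to SLC7A10, an amino acid transporter gene. A distal enhancer downstream of CEBPA is known to act in human myeloid cells, but its coordinates were not in the sources used here, and no peak was assigned to it. By number CEBPA did not stand apart on its chromosome, which is dense in peaks: 51.4% of chromosome 19 protein-coding genes had at least 3 peaks within 10 kb and 39.4% had at least 12 within 50 kb, where over all chromosomes the shares were 32.5 and 15.9%.

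CEBPG lies 71.2 kb from CEBPA on the same chromosome (chr19:33373709-33382686, plus strand), and no peak lay in it or at its start. Its 2 peaks within 10 kb were 2412 bp (chr19:33387428-33389839) and 561 bp wide, with midpoints 5.95 and 8.42 kb beyond its end, and both lay inside PEPD, the gene of a peptidase that splits proline dipeptides. All 12 peaks within 50 kb lay in PEPD, and none had CEBPG as its nearest protein-coding gene. The widest was 3064 bp (chr19:33399252-33402315), a width reached by 0.716% of all peaks. It was picked as the widest of 12, so this share of single peaks overstates how rare it is. Upstream, the sequence from CEBPA-DT to PEPD held no peak for 83.5 kb (chr19:33303898-33387427), and CEBPG lay wholly inside that stretch. Of 3446 stretches between neighbouring peaks on chromosome 19, 120 (3.48%) were as long, against 15.6% over all chromosomes. That stretch was taken as the longest to touch the 50 kb window of CEBPG. Long stretches hold more sequence, so these shares by number do not tell how often a gene lies in one. The 50 kb windows of CEBPA and CEBPG share 28.8 kb of sequence, all of it in the stretch without peaks, so no peak was counted for both.

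The 3064 bp peak in PEPD took in the start of LOC124904692, a long non-coding RNA gene. Its promoter window (chr19:33401619-33401918, plus strand) is shown because it is the only window near CEBPA or CEBPG that lay wholly under a peak. It was picked after the peaks were seen.
LOC124904692: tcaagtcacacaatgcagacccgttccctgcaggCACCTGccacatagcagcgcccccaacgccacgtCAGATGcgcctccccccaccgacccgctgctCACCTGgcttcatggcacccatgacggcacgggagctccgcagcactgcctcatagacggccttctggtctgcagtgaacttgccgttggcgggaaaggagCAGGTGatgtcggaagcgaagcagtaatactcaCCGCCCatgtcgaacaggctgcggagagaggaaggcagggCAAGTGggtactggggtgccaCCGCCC
It held 5 E-boxes, 1 of them CAGATG, and 2 GC boxes, with no GATAA match. As many E-boxes were found in 1.79% of all promoter windows. Near CEBPE, windows of ACIN1, C14orf119 and SLC7A8 also lay wholly under a peak and are not shown. Those of ACIN1 and C14orf119 held no E-box, and that of SLC7A8 held 1. C14orf119 was named after its window was seen.

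CEBPB had 6 peaks within 10 kb, all of them under 1 kb wide. CEBPB spans chr20:50190583-50192690 on the plus strand, and no peak midpoint lay inside it. A peak of 568 bp (chr20:50190170-50190737) took in the first gene start and ended 93 bp short of the second. Upstream, peaks of 420 and 358 bp lay 1.29 and 2.95 kb from the start, and all 3 of these midpoints fell in the antisense gene CEBPB-AS1. Downstream, peaks of 896 bp (chr20:50193170-50194065), 725 bp and 404 bp lay 0.93, 4.79 and 8.12 kb beyond the gene end, outside any gene.

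CEBPB ranked higher among genes close to its body than at 50 kb. Of all protein-coding genes 12.7% had at least 6 peaks within 10 kb, of those of 5 kb or less 6.33% and of those on chromosome 20 7.64%. Between 10 and 50 kb it had only 3 more, of 328, 370 and 450 bp, so that 23.3% of protein-coding genes had at least 9. The run of peaks 10 kb or less apart that held CEBPB had 7 peaks over 21.1 kb (chr20:50187456-50208546). Only 15.2% of the 10 kb window was covered, against 51.1% at CEBPE and 17.7% at CEBPA, where 3 wider peaks covered more than the 6 of CEBPB.

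CEBPD had a single peak within 10 kb, and it lay on the gene. The peak was 1044 bp wide (chr8:47737233-47738276), covered 74.4% of the 1252 bp of CEBPD (chr8:47736913-47738164) and reached 112 bp past its higher-coordinate end. At least 1 peak within 10 kb was found for 70.1% of protein-coding genes, so the number is that of many genes, while 14.9% of all peaks were as wide. The other 3 peaks within 50 kb were 438, 407 and 385 bp wide. The 438 and 407 bp peaks lay in SPIDR, a DNA repair scaffold gene, 12.2 and 17.5 kb from CEBPD. The 385 bp peak lay 26.4 kb away on the other side, nearest to PRKDC, which encodes the catalytic subunit of DNA-dependent protein kinase. Of all protein-coding genes 48.7% had at least 4 peaks within 50 kb.

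**Figure D2:**
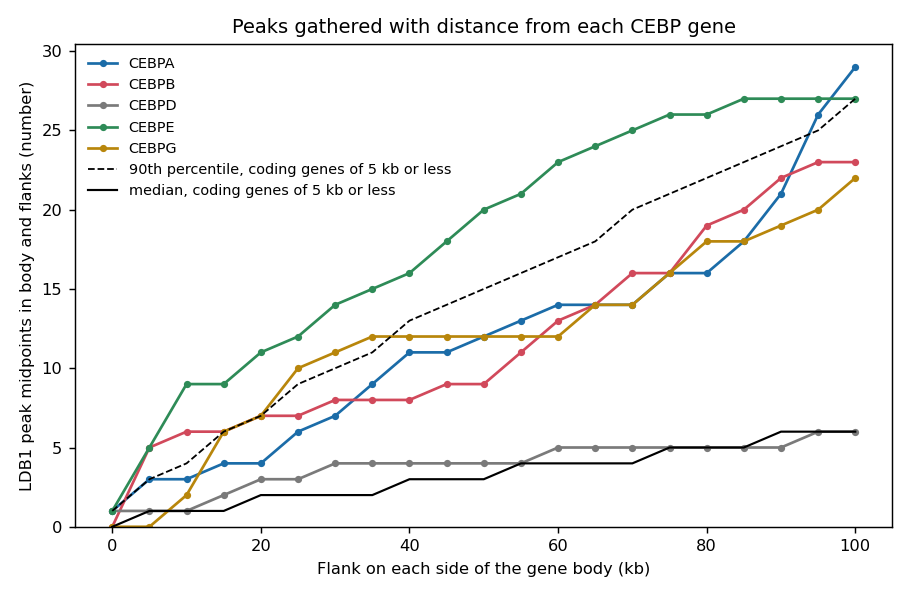
Number of LDB1 peak midpoints (y axis) in the gene body and in flanks of growing size on each side (x axis, kb) for each CEBP gene, with the median and the 90th percentile of protein-coding genes of 5 kb or less. CEBPE exceeded the 90th percentile from 5 to 95 kb and had 20 peaks at 50 kb, and CEBPD with 4 stayed near the median. CEBPB exceeded the 90th percentile at 5 and 10 kb, CEBPG from 25 to 35 kb, and CEBPA at 95 and 100 kb.

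At gene starts, 4 of the 5 members had a peak midpoint within 1 kb: CEBPB at 129 bp, CEBPE at 482 bp, CEBPA at 835 bp, and CEBPD, for which both gene ends were used because its strand was not in the promoter table. Among 15813 protein-coding genes with known strand the share was 31.9%. CEBPG was the exception, its nearest peak midpoint lying 14.9 kb from its start. The start base itself lay inside a peak for CEBPB and CEBPE but not for CEBPA and CEBPG, and for 19.6% of genes with known strand.

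The 21 peaks within 10 kb of the family had a median width of 896 bp (range 358 to 3005 bp), where all peaks had a median of 550 bp. Of the 21, 9 (42.9%) were 1 kb or wider, against 16.5% of all peaks. These wide peaks came from 4 of the members, with 4 at CEBPE, 3 at CEBPA and 1 each at CEBPD and CEBPG, and none at CEBPB. Widths of peaks equally near other genes were not computed, so neither comparison with all peaks allows for distance to a gene. Over the 50 kb windows the median was 1024.5 bp at CEBPA, 993 bp at CEBPG, 647.5 bp at CEBPE, 422.5 bp at CEBPD and 420 bp at CEBPB. Neighbouring peaks of 1 locus are not independent of each other. Width rises with depth and with the caller's settings and is not a binding strength.

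**Figure D3:**
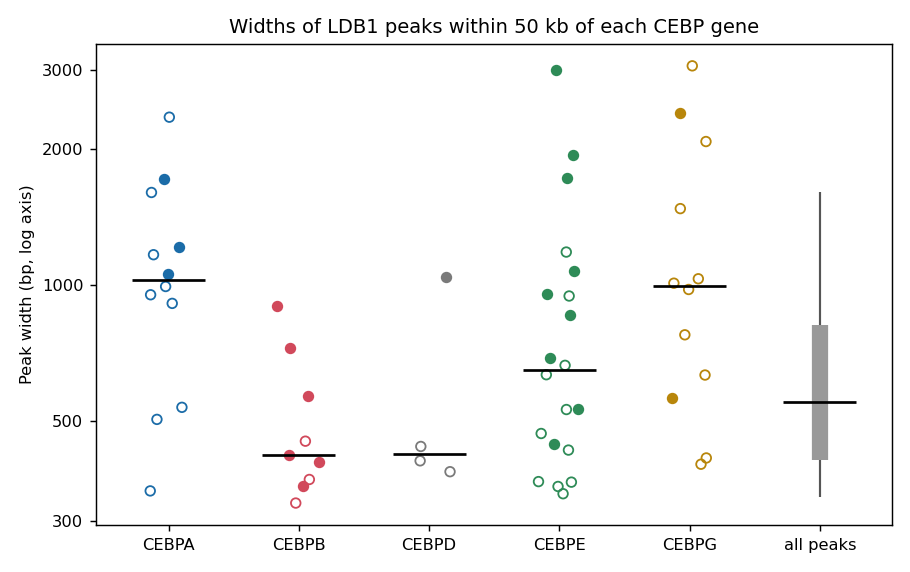
Width in bp (log axis) of every LDB1 peak within 50 kb of each CEBP gene; filled points lie within 10 kb, open points between 10 and 50 kb, and black lines are medians. For all peaks the line is the median of 550 bp, the grey bar the quartiles and the thin line the 5th to 95th percentiles; all 9 peaks at CEBPB are under 1 kb.

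Genes that work with the C/EBP proteins were read in 3 lists. Of 12 genes for basic leucine zipper relatives and partners, all 12 had a peak within 10 kb (70.1% of all protein-coding genes), with a median of 2 against 1. The widest peaks there belonged to DBP, a PAR-type factor of daily rhythms (6 peaks, widest 2246 bp), and ATF3, a stress-induced repressor (6, 1416 bp). NFIL3, a repressor needed in immune cell development (3, 1381 bp), and ATF4, the factor of the amino acid response (4, 1151 bp), followed. A peak midpoint within 1 kb of the gene start was found for 4 of the 12, near the 31.9% of all protein-coding genes with known strand. In the lists described next, it was found for 11 of the 21 regulators and for 6 of the 23 target genes.

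Of 21 genes for regulators of CEBP genes and proteins, 20 had a peak within 10 kb (70.1% of all protein-coding genes), with a median of 3 against 1. No list was matched for gene length, and a longer gene has a wider window. The widest were at SPI1, the gene of PU.1 (2 peaks, widest 3769 bp), MYB, a progenitor factor (2, 3295 bp), RUNX1, which acts on the CEBPA enhancer (8, 3118 bp), and TRIB1, a pseudokinase that directs C/EBPα to breakdown (3, 3046 bp). KLF5 had none within 50 kb. Of 23 target genes of C/EBP in granulocytes and monocytes, 17 (73.9%) had a peak within 10 kb, close to the 70.1% of all protein-coding genes, with a median of 2. LCN2 (4 peaks, widest 2315 bp) and LTF (7, 1686 bp) encode secondary granule proteins, S100A8 (2, 1440 bp) encodes a calprotectin subunit and IL6R (5, 1348 bp) the interleukin-6 receptor. CTSG, BPI, CAMP, MMP8 and OLFM4, which encode granule proteins, had no peak within 10 kb. Other granule protein genes of the list had peaks there: AZU1 5, CHI3L1 4, MPO 3, PRTN3 3, MMP9 2, and ELANE, LYZ and PGLYRP1 1 each. MMP8, OLFM4 and the genes from AZU1 to PGLYRP1 are named after their values were seen. CSF1R, the receptor gene of macrophage growth, had the most of the list with 13 and is named after its value was seen. KLF5 stands in both of these lists.

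**Figure D4:**
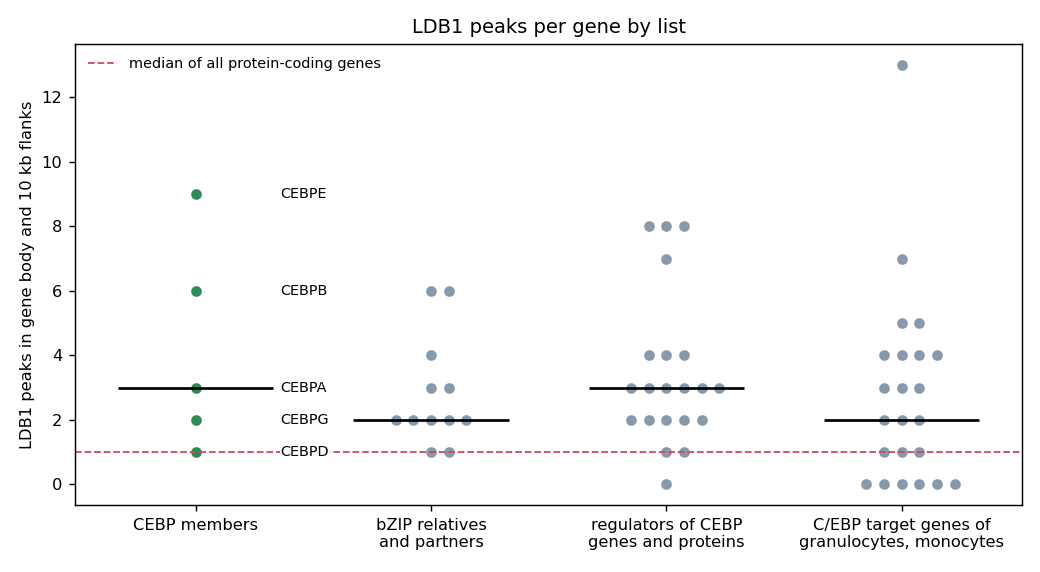
LDB1 peaks in the gene body and 10 kb flanks (y axis) for each gene (points) of the CEBP family and of 3 lists of genes that work with it; black lines are the medians of 3, 2, 3 and 2, and the dashed line is the median of 1 over all protein-coding genes. The CEBP genes range from 1 at CEBPD to 9 at CEBPE.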

How the data were processed

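CUT&Tag peaks of 1 LDB1 library from NB4 cells were used. The deposited columns, per the file headers, were the chromosome, start, end, length in bp and name of each peak; in all 53742 rows the length was that of an interval counted from 1 with both ends included. Per the submitters' processing notes the build was hg38 and the tools were Bowtie2 2.4.1 and MACS2 2.0.10. For the caller's settings, and for any use of IgG as its control, the entry is "not given in the sources used here"; thus open-chromatin background may be among the peaks. Peaks are not pooled, and no height or depth is given.

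The 52765 peaks on chromosomes 1 to 22 and X were assigned by midpoint to genes of a RefSeq table (GRCh38.p14), with strand from the RefSeq promoter table where it held the gene. Counts are set beside all protein-coding genes. No test was possible, since each antibody had 1 library. Counting was tested on simulated peaks at 200 genes. Python 3.11.15, numpy 2.4.6, pandas 2.3.3 and matplotlib 3.10.9 were used. Members and lists were chosen with earlier results of these data known. The genes named were the members, genes holding or nearest to a peak within 50 kb of them, and from each list the 4 with the widest peaks and up to 3 without a peak. Likeness of pattern to other genes was not computed, as it needs several samples. Alternatives changed the peaks kept, the window, the midpoint rule and the joining of neighbours.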

Additional observations from a re-analysis of the deposited data

How the results depend on the processing

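All 5 CEBP genes kept a peak within 10 kb with the widest 50% or 25% of peaks and with any overlap in place of the midpoint, where the shares of all protein-coding genes were 52.5, 34.9 and 70.4%. With the gene body only, 3 of 5 had one, against 54.5% of all. With a flank of 5 kb, or counted from the gene start, or with peaks 1 kb or less apart joined, 4 of 5 did, CEBPG being the exception, against 65.0, 56.4 and 70.0% of all, so these member counts say little beyond the shares of genes at large; joining moves the first midpoint at CEBPG past 10 kb. The median per member, 3 peaks, became 1 with the widest 25% of peaks, 7 at 20 kb and 1 with the gene body only. Genes at large with a peak within 10 kb numbered 13996; they were 6967 with the widest 25% of peaks, and 1877 when restricted to genes of 5 kb or less, of which fewer were counted. For single members, 14 counts in the 10 kb window moved by over 1.5 times and 26 did not. In the 50 kb window 13 moved and 12 did not, under settings that included a 100 kb flank and only peaks nearest to the member. CEBPE had 5 peaks at 5 kb and 5 with neighbours joined, and CEBPB had 1 among the widest 25%. Peak depth was unknown, so a lack of peaks, as at CEBPG, may be a lack of depth. No paired analysis was possible because each antibody had 1 library.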

Other observations

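Between 50 and 100 kb from CEBPB lay 14 further peaks, 12 of them downstream, with a median width of 545 bp and none over 745 bp. Of the 12 downstream peaks, 4 lay in the long non-coding RNA gene PELATON, 2 each lay in LOC105372656 and LOC107985386, and 4 lay in no gene. The 2 upstream peaks lay in the protein-coding gene PEDS1-UBE2V1, 1 of them also in PEDS1 and 1 also in UBE2V1. PELATON, LOC105372656, LOC107985386, UBE2V1 and LRP3 were named after these values were seen. CEBPA had 17 peaks at that distance, 10 downstream in or near LRP3, a receptor gene, and SLC7A10, and 7 upstream in PEPD, the same 7 that lie nearest to CEBPG. The stretch of 1 Mb centred on the gene held 71 peaks at CEBPE, 58 at CEBPB, 80 at CEBPA, 83 at CEBPG and 16 at CEBPD.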
